A study of Mus musculus with 3 samples.

Results

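Tfh subcluster 1 is a group of splenic follicular helper T (Tfh) cells from immunised mice that carried many transcripts of regulatory T cells. Little or no Foxp3 was detected in most of its cells, a feature of the authors' Tfh class, which tracks that gene. Members of the group are the cells that the authors' Tfh table numbers as cluster 1 at a clustering resolution of 0.3, matched by barcode to the deposited count matrices. The group holds 2711 of the 13784 Tfh entries and of the 18693 annotated entries of the series. Of these, 927 belonged to wild-type (WT) replicate 1, 867 to WT replicate 2 and 917 to the Siglec-G B cell knockout (BKO).

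The study compared follicular T cells of mice with and without Siglec-G, a sialic acid receptor that dampens B cell signalling, on B cells. Mice received liposomes carrying ovalbumin, and spleens were taken on day 14. Tfh cells and follicular regulatory T (Tfr) cells were sorted by surface markers, and their transcripts were read cell by cell with 10x 3′ libraries, where each unique molecular identifier (UMI) stands for 1 captured molecule. The groups compared were WT mice and mice whose B cells lack Siglec-G, all given the same immunisation. The Cre driver of the knockout, the strain, age and sex of the mice, the number of animals pooled per library and the sort markers are not given in the sources used here. By their labels, BKO shares batch 1 with WT replicate 1, while WT replicate 2 is in batch 2.

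Although labelled as replicates, the WT samples held the same cells. Of 5192 distinct WT barcodes in the tables, 5068 occurred in both, and they are called WT run 1 and WT run 2 here. The subcluster 1 entries of WT came from 1100 distinct barcodes, of which 694 were in subcluster 1 in both runs. Only 5 barcodes of run 1 and 6 of run 2 also occurred among the annotated BKO cells. Each genotype therefore had 1 library, no test between genotypes exists, and no p-value is given. Genotype cannot be told apart from the library and its animals.

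Class sums for subcluster 1 held 4405628, 6861673 and 6013340 UMIs in WT run 1, WT run 2 and BKO, and values below keep that order unless stated. A cell of the subcluster had a median of 4265, 7075 and 6077 UMIs, against 4454, 7346 and 6271 in the other Tfh cells and 5146, 8407 and 7054.5 in Tfr cells. Levels are given as CPM, the UMIs of a gene per 1000000 UMIs of the class, with 95% exact Poisson intervals that cover counting error only. Siglecg, the targeted gene, had 0 UMIs in the subcluster in all 3 samples, so these T cells cannot check the knockout. Defining markers of other cells were low: the 8 B cell markers summed to between 27.3 and 36.9 CPM, and the 6 plasma cell markers to between 54.9 and 60.2 CPM with Tnfrsf17 at 0. The 9 myeloid markers summed to between 106 and 145 CPM, the 10 CD8 T and NK cell markers to between 54.7 and 60.6 CPM and the 6 erythroid markers to between 5.83 and 12.5 CPM. The 12 T cell markers summed to between 9413 and 10759 CPM.

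Tfh cells enter B cell follicles under the transcription factor Bcl6 and help B cells through CD40 ligand and the cytokines IL-21 and IL-4. Tfr cells share Bcl6 and the follicle-homing receptor CXCR5, but carry Foxp3, the lineage factor of regulatory T cells, and restrain the same response with CTLA-4 and decoy or inhibitory molecules. Regulatory T cells are also known for the IL-2 receptor chain CD25 (Il2ra) and for the Ikaros family factors Helios (Ikzf2) and Eos (Ikzf4).

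The label of the group rests on those last 3 genes, and each was high in it. Il2ra (chr 2, 11642807 to 11693193, GRCm38) stood at 60.1, 56.1 and 30.1 CPM (intervals 53.1 to 67.9, 50.6 to 62.0 and 25.9 to 34.8), where the other Tfh cells had 9.21, 9.28 and 5.20 CPM and Tfr cells 94.5, 103 and 72.4 CPM. The subcluster lay between the other classes in every sample, and its BKO value lay under both WT values. Ikzf4 (chr 10, 128630843 to 128645991) stood at 98.3, 95.7 and 80.8 CPM, against 12.2, 12.4 and 10.9 in other Tfh cells and 100, 97.9 and 86.0 in Tfr cells. Ikzf2 (chr 1, 69531214 to 69687245) stood at 3407, 3471 and 3342 CPM, against 1029, 1042 and 1056 in other Tfh cells and 3173, 3234 and 3032 in Tfr cells. For both Ikaros factors the subcluster was near the Tfr level in all 3 samples and far above the other Tfh cells.

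The same order held per cell, although Il2ra was detected in a minority of the subcluster and unevenly. Of its UMIs there, 20 cells held 44.2%, 41.0% and 47.5%. After each cell was thinned to 2500 UMIs, 9.66%, 8.13% and 5.73% of subcluster 1 cells had an Il2ra UMI, against 1.09%, 1.49% and 0.976% of other Tfh cells and 14.8%, 17.3% and 12.4% of Tfr cells (14.7%, 19.6% and 10.7% of the subcluster without thinning). An Ikzf2 UMI was present in 98.3%, 97.6% and 97.6% of thinned subcluster 1 cells and in 68.3%, 68.7% and 72.2% of other Tfh cells. Thinning left out 57, 6 and 27 shallower cells of the subcluster. Free RNA carried the gene too: BKO barcodes of 1 to 50 UMIs, taken here as free RNA, had 1303 CPM of Ikzf2, above the other Tfh cells and well under subcluster 1, and 20.2 CPM of Il2ra and 30.2 CPM of Ikzf4. No doublet caller was run, and the sources used here do not say how doublets were treated.

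**Figure D1:**
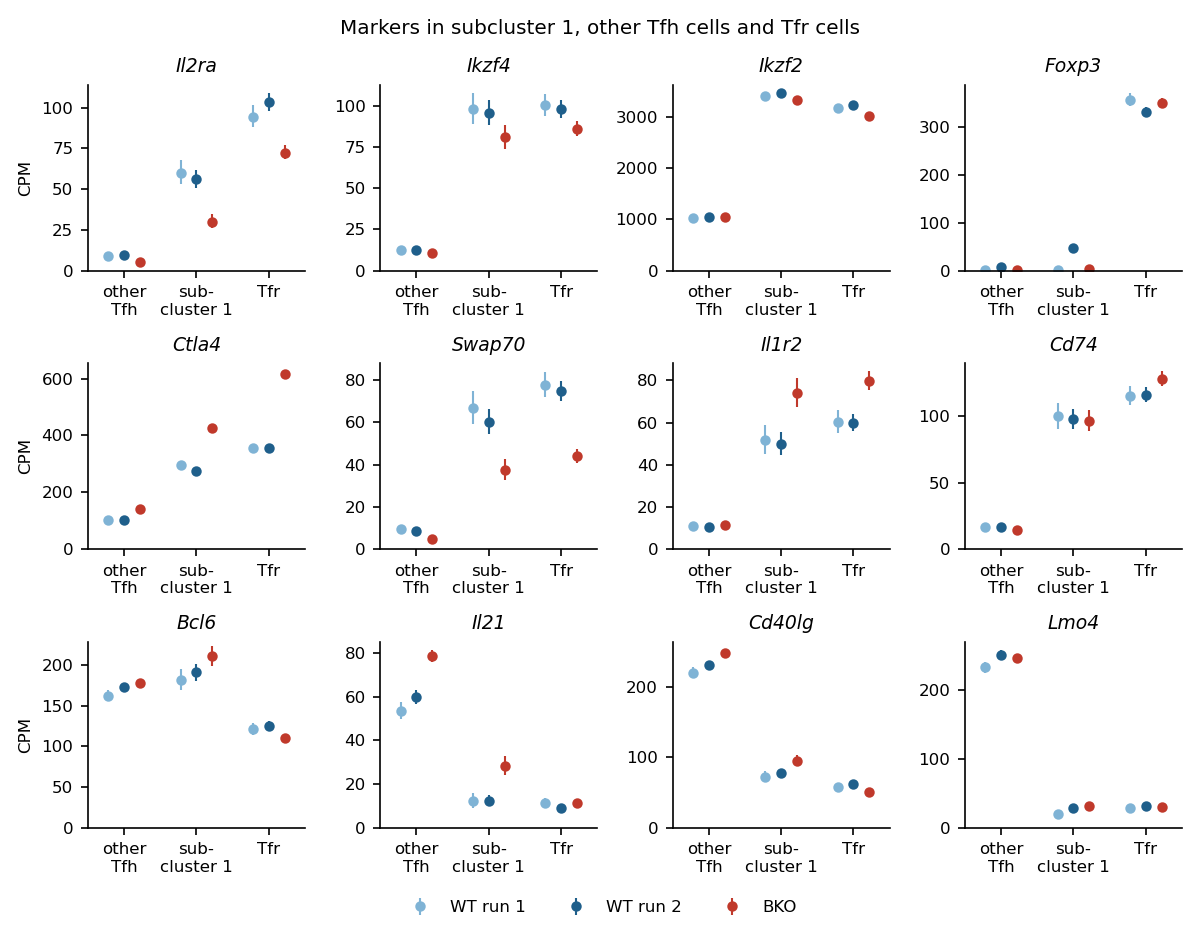
CPM of 12 genes (linear axes from 0) in other Tfh cells, subcluster 1 and Tfr cells, with 1 point per sample and bars for the 95% exact Poisson interval. Il2ra, Ikzf4, Ikzf2, Ctla4, Swap70, Il1r2 and Cd74 sit near or part of the way to the Tfr level in subcluster 1. Foxp3 stays far under the Tfr level in every sample (46.1 against 331 CPM in run 2, where it is highest). Il21, Cd40lg and Lmo4 sit well under the level of other Tfh cells.

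Foxp3 (chr X, 7573644 to 7595245) did not follow these markers. It stood at 1.59, 46.1 and 2.49 CPM in subcluster 1, against 356, 331 and 349 CPM in Tfr cells and 0.558, 7.76 and 1.14 CPM in other Tfh cells. The authors' classes track this gene, since every Tfr cell had a Foxp3 UMI in the matrix of its own library (1416 of 1416, 1449 of 1449 and 2044 of 2044). A low level in a Tfh subcluster thus comes with the class and is no finding about this group. In the subcluster 7 of 927 cells (0.755%) had one in run 1, 218 of 867 (25.1%, exact 95% interval 22.3 to 28.2) in run 2 and 15 of 917 (1.64%) in BKO. Among the other Tfh cells the shares were 0.286%, 5.25% (4.45 to 6.14) and 0.786%. Run 2 stood apart, and its deposited matrix holds a median of 1.52 times the UMIs that the authors' table lists for the same cells, while run 1 and BKO totals equal the table in 79.8% and 71.8% of subcluster 1 cells. Thinned to 2500 UMIs, 9.64% of run 2 subcluster 1 cells still had a Foxp3 UMI, against 1.85% of the other Tfh cells of that run. The free RNA of BKO held 112 CPM of Foxp3, far more than the 2.49 CPM of the BKO subcluster.

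Looking up the cells of run 1 in the deeper matrix of run 2 gave a reading of Foxp3 that the run 1 class did not use. Of 917 subcluster 1 cells of run 1 that were annotated in run 2, 302 (32.9%, 29.9 to 36.1) had a Foxp3 UMI there and 100 (10.9%) had 2 or more. Of 2764 other Tfh cells, 182 (6.58%, 5.69 to 7.57) had 1 or more and 27 (0.977%) had 2 or more, and of 1387 Tfr cells 1326 (95.6%) had 1 or more. The subcluster share was thus well above that of the other Tfh cells, with intervals that do not overlap. It was well under that of Tfr cells, but the classes set that gap beforehand. In run 1 itself 1416 of 1416 Tfr cells and 7 of 927 subcluster 1 cells had a Foxp3 UMI, and both runs read the same cells. The share was 27.1% in the shallowest of 3 equal bins of run 2 depth (median 5062 UMIs) and 41.8% in the deepest (median 10727 UMIs). Of the 694 cells placed in subcluster 1 in both runs, 602 (86.7%) had no Foxp3 UMI in either matrix. These cells were classed as Tfh in both runs and the class tracks Foxp3, so this share was largely set beforehand.

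The class of these cells was unsettled between runs. Of the 917 cells, 694 (75.7%, 72.8 to 78.4) were in subcluster 1 again in run 2, 210 (22.9%, 20.2 to 25.8) were put in Tfr and 13 in another Tfh subcluster. Every Tfr cell of run 2 had a Foxp3 UMI in that matrix. The 210 cells are thus among the 302 above and are no separate reading. Among other Tfh cells, 84 of 2764 (3.04%, 2.43 to 3.75) were put in Tfr. In the reverse direction, 156 of 861 run 2 subcluster 1 cells (18.1%) were Tfr in run 1, against 77 of 2759 other Tfh cells (2.79%). Subcluster 1 gave 71.4% of all Tfh cells of run 1 that were put in Tfr in run 2, and took 67.0% of the Tfr cells of run 1 that were put in Tfh. Of the 527 cells whose class differed between runs, 366 (69.5%) were in subcluster 1 in one of them. Moves went to Tfr subclusters 0 (95 cells), 2 (45), 3 (30), 1 (26) and 4 (14), and to none of Tfr subclusters 5 and 6. The share was as large among deeper cells, where 124 of 502 cells of at least 4000 UMIs in run 1 (24.7%) were put in Tfr.

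**Figure D2:**
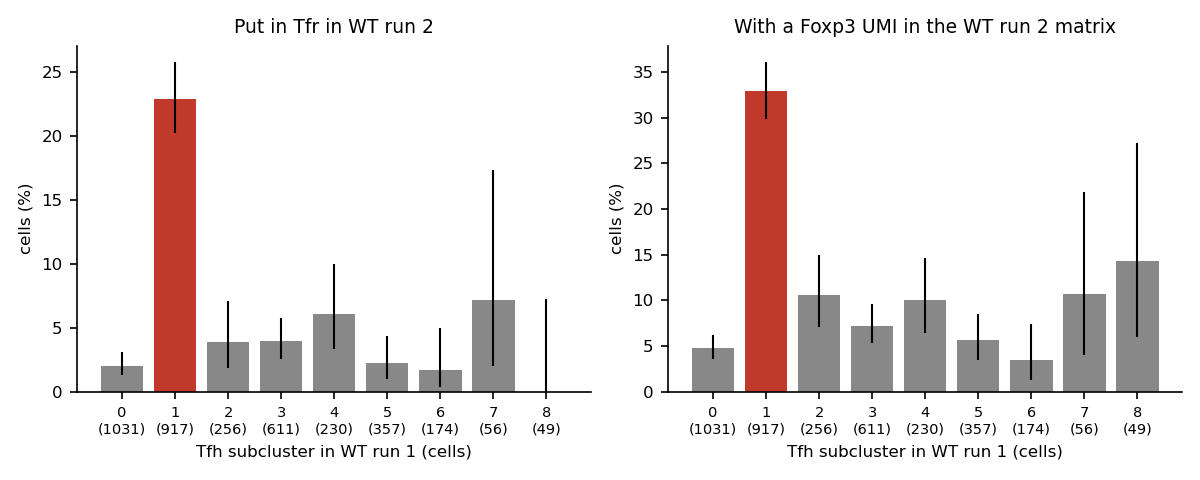
Cells of each WT run 1 Tfh subcluster (number of cells in brackets) that were put in Tfr in run 2 (left, %) and that had a Foxp3 UMI in the run 2 matrix (right, %), with 95% exact intervals. Subcluster 1, in red, stands at 22.9% and 32.9%. The next highest bars are 7.14% for subcluster 7 (left) and 14.3% for subcluster 8 (right), each from few cells. Cells counted on the left are among those counted on the right, since every run 2 Tfr cell had a Foxp3 UMI.

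Genes of the subcluster were next set against the other Tfh cells of the same library. The clustering used these genes, so the values describe the group and test nothing. A gene was called when it had a mean of at least 20 CPM over both classes and differed by at least 1.5 times in the same direction in all 3 samples, after 0.5 CPM was added. Of 6580 genes, 204 (3.1%) were called higher and 101 (1.53%) lower, and the median log2 ratio of all genes was 0.03. With TMM scaling, which sets the bulk of genes level between classes, 153 were higher and 125 lower, so that 55.0% of calls were higher and not 66.9%.

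Regulatory T cell genes were mostly higher. Of 21 tested, 16 were called higher and 0 lower, with a median log2 ratio of 1.36. The coinhibitory receptor gene Ctla4 stood at 295, 276 and 425 CPM, against 103, 103 and 142 in other Tfh cells. The TNF receptor family was represented by Tnfrsf18 (GITR) at 296, 261 and 361 CPM against 112, 105 and 137, and by Tnfrsf4 (OX40) at 355, 319 and 466 CPM against 112, 107 and 157. Both were higher in every sample, with Poisson intervals that do not overlap. Of 15 genes of that family and of NF-kB signalling, these and Tnfrsf9 and Tnfrsf1b were called higher, and Nfkbid, an inhibitor of NF-kB, lower. The ectoenzyme gene Nt5e (CD73), the TGF-beta-activating integrin gene Itgb8 and the coreceptor gene Nrp1 had log2 ratios of 0.86, 1.11 and 1.02. Sdf4, with a log2 ratio of 0.68, lost its call with TMM scaling.

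Genes for secreted or decoy molecules of Tfr cells followed, with 4 of 5 called higher (median 1.98). Il1r2 encodes a decoy receptor for IL-1 and stood at 51.8, 49.8 and 74.2 CPM, against 10.8, 10.5 and 11.3. Nrn1, encoding neuritin, had a log2 ratio of 1.98, and Penk, the gene of the opioid precursor proenkephalin, 1.99. Penk was uneven between cells: its UMIs lay in 9.92%, 12.3% and 8.72% of the cells, and 20 cells held 65.3%, 63.7% and 71.2% of them.

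Ranked by the smallest ratio over the samples, the 10 genes highest over other Tfh cells were Cep112, Matn2, Bicd1, Ikzf4, Swap70, Cd74, Il2ra, Lamc1, Il1r2 and Tnfrsf8, with log2 ratios from 2.06 to 3.96. Cep112, which encodes a centrosomal protein, stood at 57.4, 64.4 and 72.3 CPM, against 4.05, 4.99 and 2.39. Matn2, encoding the matrix protein matrilin-2, stood at 43.8, 43.6 and 41.1 CPM against 3.70, 4.34 and 3.87. In both cases no value of the other Tfh cells came near those of the subcluster. Cd74, the invariant chain of MHC class II, stood at 99.9, 97.8 and 96.5 CPM against 16.8, 16.6 and 14.5, while B cell markers such as Cd79a stayed under 1.5 CPM in each sample. Swap70, encoding a regulator of actin and Rac, stood at 66.7, 60.0 and 37.4 CPM against 9.56, 8.63 and 4.96.

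The helper side was lower. Of 8 genes of B cell help, 4 were called lower and 0 higher (median -1.08). Il21 stood at 12.3, 12.2 and 28.4 CPM, against 53.5, 59.8 and 78.6 in other Tfh cells, and Cd40lg at 72.4, 77.2 and 94.8 CPM against 220, 231 and 249. Il4 stood at 34.5, 42.3 and 30.6 CPM against 108, 115 and 86.9, and Tnfsf8, the CD30 ligand gene, at 152, 154 and 124 CPM against 503, 507 and 487. Every subcluster value of these 4 genes lay under every value of the other Tfh cells. Among 13 tested genes that regulatory T cells keep low, 11 were called lower (median -1.41), including the transcription factor gene Tcf7 (-0.80), the TCR signalling gene Themis (-1.41) and Id2 (-1.16).

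Most Tfh identity genes were not called, but calls leaned to the lower side. Of 28 tested, 1 (Icos) was called higher and 5 (Tcf7, Cd200, Angptl2, Sostdc1 and Ptpn11) lower. The median was 0.01 (-0.07 with TMM scaling). Over all genes 3.1% were called higher and 1.53% lower, so lower calls were more common in this list. Bcl6 stood at 182, 191 and 211 CPM, against 162, 173 and 178 in other Tfh cells and 121, 125 and 110 in Tfr cells. Cxcr5 stood at 157, 154 and 199 CPM against 210, 209 and 236, and Pdcd1, the gene of PD-1, at 253, 245 and 319 CPM against 230, 236 and 300. None of these 3 genes passed the rule. Icos, the inducible costimulator, stood at 359, 355 and 434 CPM against 235, 232 and 270, and its call was lost with TMM scaling.

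The 10 genes lowest against other Tfh cells were Ralyl, Gzmk, Eomes, Smtn, Lmo4, Sostdc1, Cacna1d, Rgcc, Tgfbr3 and Tnc. Lmo4, a LIM-domain transcriptional cofactor, stood at 20.4, 29.0 and 31.6 CPM against 234, 252 and 247. Gzmk and Eomes, a granzyme and a T-box factor of cytotoxic cells, stood at no more than 1.33 and 4.09 CPM in the subcluster, against 94.1, 91.0 and 23.5 CPM and 81.9, 83.3 and 12.1 CPM. CD8 T and NK cell markers summed to 556, 525 and 87.4 CPM in the other Tfh cells, and their part in these differences was not tested. Klf2, a factor that keeps T cells recirculating, stood at 29.96, 30.6 and 19.3 CPM against 121, 110 and 108. With S1pr1 and Satb1 it made 3 of 11 resting and recirculating genes called lower.

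The remaining lists held fewer calls. Of 5 Ikaros family genes, Ikzf2 and Ikzf4 were higher and Ikzf1 lower (-0.89). Of 12 TGF-beta pathway genes, Tgfbr1, Itgb8 and Nrp1 were higher and Tgfbr3 lower. Of 11 TCR response genes, Tnfrsf9 was higher and Egr1, Egr2 and Nfkbid lower. One of 13 IL-2 and common gamma chain genes (Il2ra) and 1 of 13 glycolysis genes (Slc2a3, a glucose transporter) were called higher, and 1 of 14 interferon genes (Ly6a) lower. Of 7 tested cell cycle genes, Stmn1 and Hmgb2 were lower.

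Against all Tfr cells the subcluster differed in few genes. Of 6590 genes, 19 (0.288%) were called higher and 13 (0.197%) lower. With TMM scaling 14 were higher and 15 lower, which makes 48.3% and not 59.4% of calls higher. Without WT run 1, 24 genes were lower. Regulatory T cell genes showed 0 of 26 higher and 3 lower, namely Foxp3, Il2ra and Tnfrsf4, with a median of -0.25.

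Genes lower than in Tfr cells, pooled over all cells of each class, included those of activation. Il2ra had log2 ratios whose mean was -0.92. Nr4a1, an immediate early gene of TCR signalling, stood at 17.0, 16.5 and 16.6 CPM against 37.2, 39.9 and 32.3 in Tfr cells, and Egr1 at 56.5, 60.0 and 62.5 CPM against 100, 109 and 120. With Nfkbid these made 3 of 11 TCR response genes, and the list's median was -0.56. Prdm1, which encodes Blimp-1, the opponent of Bcl6, stood at 9.76, 12.5 and 25.9 CPM against 22.9, 23.1 and 55.9. Prdm1, S100a4 and S100a6 were the 3 genes called lower of 15 effector regulatory T cell genes (median -0.51). Esyt1, a membrane tether at the endoplasmic reticulum, had 20.2, 20.3 and 19.6 CPM against 40.2, 40.5 and 39.7, a difference that was alike in all 3 samples.

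Genes higher than in Tfr cells were led by Apoe, Gal, Deup1, Cxxc5 and Pou2af1. Pou2af1, the coactivator OCA-B of lymphocytes, stood at 50.8, 51.4 and 66.5 CPM against 25.4, 23.9 and 28.4 in Tfr cells and 57.2, 57.0 and 68.4 in other Tfh cells. Cxxc5, a CXXC zinc finger gene, stood at 34.0, 32.1 and 46.2 CPM against 14.6, 14.8 and 16.4. For these genes the subcluster was at the level of other Tfh cells. Cxcr4, the chemokine receptor of the dark zone, stood at 26.1, 36.7 and 60.7 CPM against 16.01, 21.7 and 36.1.

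Apoe and Gal came from few cells. Apoe, the apolipoprotein E gene, stood at 77.2, 62.4 and 145 CPM against 0.602, 3.17 and 4.65 in Tfr cells, but its UMIs lay in 23, 21 and 36 cells, and 20 cells held 99.1%, 99.8% and 95.5% of them. Gal, the gene of the neuropeptide galanin, lay in 14, 17 and 42 cells. Cells with both were 1, 1 and 8. The cells were the same ones in both runs: all 13 run 1 cells with 2 or more Apoe UMIs, and all 9 with 2 or more Gal UMIs, had 2 or more in run 2. Myeloid markers, listed above, did not exceed 145 CPM, and their part in the Apoe level was not tested.

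The level of subcluster 1 was then placed on a scale where 0% is the level of other Tfh cells and 100% that of Tfr cells, on the log2 scale per gene. The genes were those called between Tfr and other Tfh cells (246 of 6543 higher, 3.76%, and 151 lower, 2.31%), with Foxp3 left out. Both ratios share the other Tfh cells, so the scale is a description. Over 245 genes higher in Tfr cells the median position was 89.2%, 89.7% and 89.8% in WT run 1, WT run 2 and BKO. For the 151 lower genes it was 81.5%, 82.0% and 64.6%, so the BKO cells lay less far towards Tfr cells on that side.

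Individual genes departed from the median both ways, and those named here were chosen after their values were seen. Gna14, a G protein subunit gene, lay past the Tfr level at 69.9, 67.2 and 60.9 CPM against 39.95, 43.8 and 46.2 in Tfr cells. Ikzf2, Nt5e, Cd38 and St6galnac3 also lay past it in all 3 samples. Bcl2l1, which encodes the survival factor Bcl-xL, stayed under the midpoint in all 3, at 37.0, 31.6 and 18.6 CPM against 53.9, 52.0 and 38.8, as did Arl5a and Mir155hg. Pou2af1 and Cxxc5 were among the genes of the lower side that stayed near other Tfh cells, at positions of 14.6%, 11.8% and 3.19% and of -12.6%, -6.97% and -40.5%.

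Most single cells of the group showed the shift. The genes were called in these same data and the clustering used such genes, so the shares are a description and test nothing. The share of a cell's UMIs in the genes higher in Tfr cells had a median of 3.201%, 3.13% and 3.01% in subcluster 1, against 1.51%, 1.5% and 1.38% in other Tfh cells and 3.44%, 3.42% and 3.47% in Tfr cells. Of the subcluster 629 of 927 cells (67.9%), 591 of 867 (68.2%) and 591 of 917 (64.4%) lay above the 95th percentile of other Tfh cells. Above the 5th percentile of Tfr cells lay 94.1%, 93.3% and 93.1%. The share in genes lower in Tfr cells had a median of 1.33%, 1.32% and 1.22%, against 2.69%, 2.67% and 2.30% in other Tfh cells and 1.08%, 1.06% and 0.845% in Tfr cells.

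**Figure D3:**
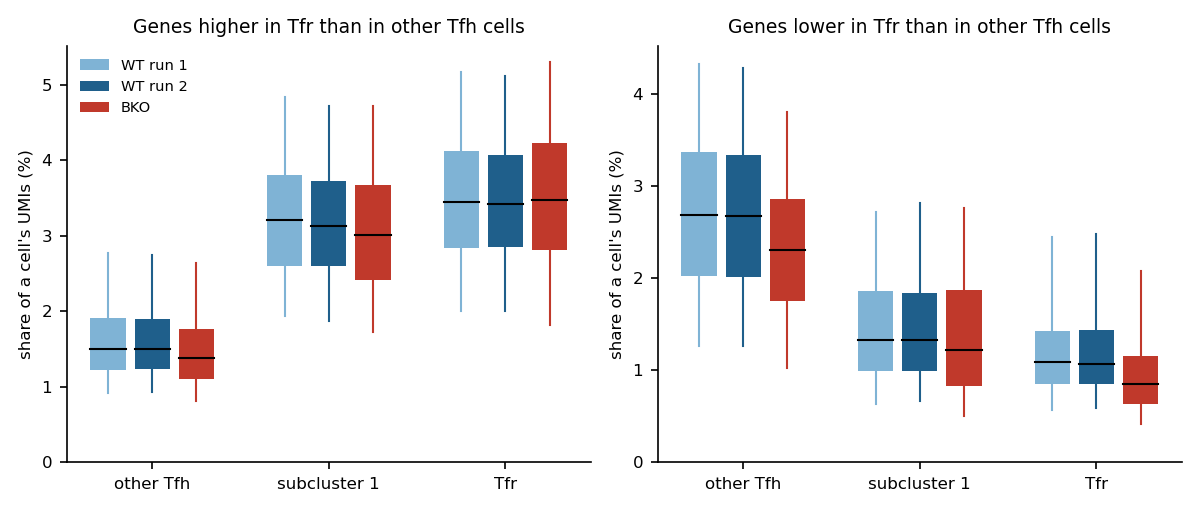
Share of each cell's UMIs (%) in genes called higher (left) and lower (right) in Tfr than in other Tfh cells, by class and sample, with lines from the 5th to the 95th percentile of cells, boxes for the quartiles and black bars for the medians. Subcluster 1 medians of 3.201%, 3.13% and 3.01% on the left sit just under those of Tfr cells, and its boxes there do not meet those of other Tfh cells.

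Set against each authors' subcluster of at least 50 cells, the summed profile of subcluster 1 was nearest to a Tfr subcluster in every sample. Pearson's r across genes, which are not independent replicates, was highest with Tfr subcluster 0 in WT (0.982 in run 1 over 6633 genes, 0.985 in run 2 over 6598) and with Tfr subcluster 3 in BKO (0.980 over 6441). Genes at least 2-fold apart from that nearest subcluster numbered 30, 24 and 55. With the other Tfh subclusters r ran from 0.839 to 0.958, which overlaps the Tfr range: in BKO, Tfh subcluster 3 (0.958) was nearer than Tfr subclusters 1 (0.956) and 4 (0.952). Profiles within a sample share the library.

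The group was not uniform. The tables carry a second set of cluster numbers, at a resolution of 0.6, that run across Tfh and Tfr cells alike, and they are called joint clusters here, although the sources do not state on which cells they were computed. Joint clusters 0, 3, 5 and 6 held 89.0%, 89.6% and 83.5% of subcluster 1 cells. In WT, cluster 0 took 50.4% and 48.8% and cluster 5 took 25.6% and 26.4%. In BKO, cluster 0 held 11.6% (9.56 to 13.8), cluster 5 35.2%, cluster 3 18.8% and cluster 6 18.0%. Cluster 0 was thus the main place of the WT cells and a minor place of the BKO cells. Joint clusters 0 and 6 were mostly shared with Tfr cells (1613 and 1120 Tfr cells, 55 and 54 other Tfh cells), while cluster 3 held more other Tfh cells (1133) than Tfr (601) or subcluster 1 cells (309).

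Several genes of Tfh cells were highest in joint cluster 5. Bcl6 stood there at 353, 378 and 358 CPM, against 120, 130 and 130 in cluster 0 and 35.1, 40.6 and 51.1 in cluster 6. Il21 stood at 35.6, 33.9 and 46.8 CPM in cluster 5 and at no more than 8.99 CPM in the other 3. Pou2af1 stood at 135, 130 and 125 CPM in cluster 5 and at 13.6, 14.8 and 16.3 in cluster 0. In all 3 samples, then, cluster 5 held the highest level of each gene, with no overlap. Pdcd1, Cxcr5 and Cd40lg were highest in cluster 5 too, at 456, 464 and 453 CPM, at 250, 269 and 274 CPM and at 130, 139 and 144 CPM. Icos went the other way, at 398, 414 and 425 CPM in cluster 5 against 904, 918 and 701 in cluster 6. Il2ra was low in cluster 5, at 10.0, 7.46 and 8.67 CPM, although Ikzf2 stood at 3588, 3506 and 3686 CPM. Cluster 5 also held most of the Apoe and Gal, as 56.5%, 71.4% and 75% of cells with an Apoe UMI lay in it, and most of Igkc (250, 232 and 235 CPM) and the unnamed transcript Gm30211 (424, 386 and 384 CPM), both chosen after their values were seen.

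Prdm1, Ctla4, S100a4, Tnfrsf9 and Capg were highest in joint cluster 6. Prdm1 stood at 74.6, 114 and 111 CPM there and at no more than 14.8 CPM in clusters 0, 3 and 5. Ctla4 stood at 715, 821 and 882 CPM, S100a4 at 851, 588 and 765 CPM and Tnfrsf9, the costimulatory receptor 4-1BB, at 627, 517 and 583 CPM. Capg, an actin-capping protein gene of regulatory T cells, stood at 557, 515 and 538 CPM against 144, 122 and 130 in cluster 0. These genes were highest in cluster 6 in every sample. Cluster 0 lay between, with Il2ra at 58.0, 66.5 and 53.0 CPM. In cluster 3 the runs of WT disagreed, with Il2ra at 161 CPM (run 1, 66 cells) and 50.8 CPM (run 2, 71 cells).

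**Figure D4:**
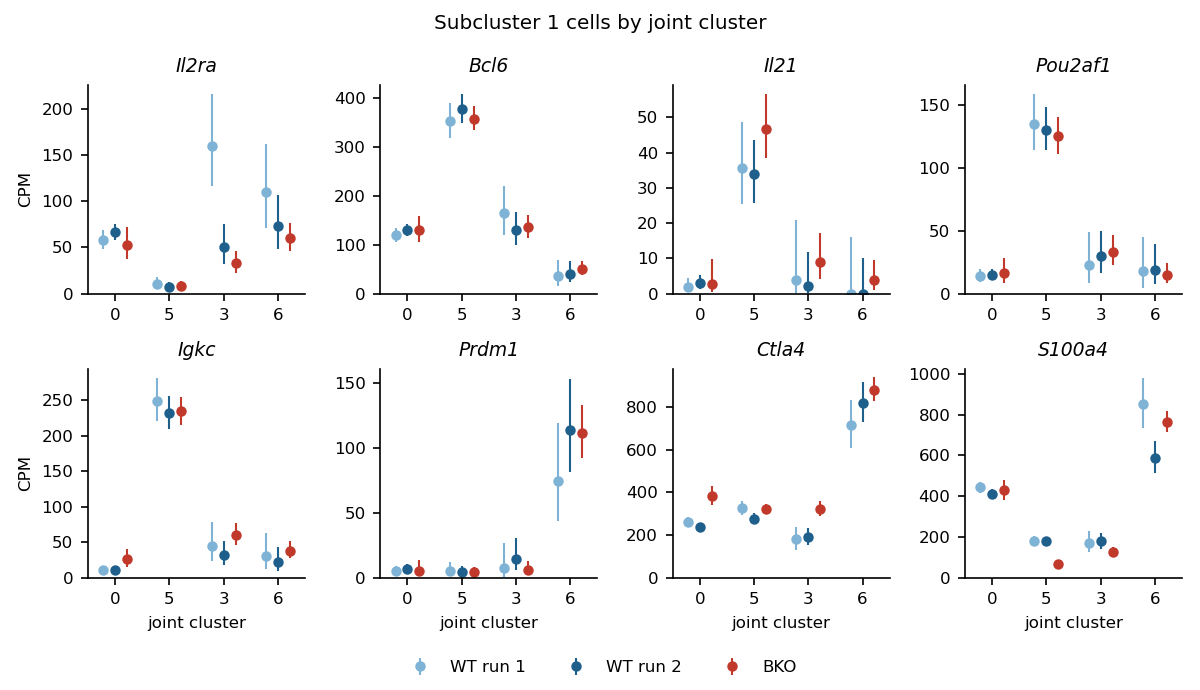
CPM of 8 genes in subcluster 1 cells by joint cluster (0, 5, 3 and 6) and sample, with 95% exact Poisson intervals. Bcl6, Il21, Pou2af1 and Igkc peak in cluster 5, Prdm1, Ctla4 and S100a4 in cluster 6, and Il2ra is lowest in cluster 5, at 10.0, 7.46 and 8.67 CPM.

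Foxp3 and the class in the other run varied over these clusters. Of run 1 cells looked up in the run 2 matrix, 38.9% in cluster 0, 18.3% (13.6 to 23.8) in cluster 5, 35.4% in cluster 3 and 46.3% (32.6 to 60.4) in cluster 6 had a Foxp3 UMI. In cluster 2, which is mostly other Tfh cells, 1 of 27 had one. The share put in Tfr in run 2 was 26.1%, 13.6%, 21.5% and 31.5% in clusters 0, 5, 3 and 6, and 0 of 27 in cluster 2.

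Compared with Tfr cells of the same joint cluster, differences were fewer in cluster 0 and more in cluster 5. In cluster 0, 0 genes of 6551 were called higher and 2 lower, namely Foxp3 and Esyt1. Clusters 3, 5 and 6 had 18, 26 and 7 genes higher and 5, 13 and 10 lower. Within cluster 5, Tnc stood at 39.2, 45.9 and 36.8 CPM in subcluster 1 against 10.7, 13.2 and 7.14 in Tfr cells, and Pde3b, a phosphodiesterase gene that regulatory T cells keep low, at 76.6, 74.6 and 92.8 CPM against 22.5, 14.6 and 12.5. Il1r2 and Matn2 were lower than in the Tfr cells of that cluster (70.2, 64.8 and 90.2 CPM against 116, 109 and 146 for Il1r2). Within cluster 6, Il2ra was lower, at 110, 73.1 and 60.4 CPM against 243, 238 and 111. This comparison was added after the data were seen, and clusters 3 and 6 rest on 54 to 172 subcluster 1 cells a sample. Nr4a1, lower over all cells, stood at 14.5, 14.8 and 13.6 CPM against 14.0, 12.5 and 5.85 in Tfr cells of cluster 0. In cluster 5 it stood at 24.6, 16.1 and 14.3 CPM against 13.0, 11.2 and 8.04. It was lower in cluster 6 (13.2, 27.1 and 26 CPM against 47.1, 35.8 and 39.3), and the samples disagreed in cluster 3. Prdm1 stood at 74.6, 114 and 111 CPM in cluster 6 against 140, 134 and 129. The part of cell makeup by cluster in the pooled differences was not tested.

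Subcluster 1 made up 927 of 3727 Tfh cells (24.9%, 23.5 to 26.3) in WT run 1, 867 of 3668 (23.6%, 22.3 to 25.05) in run 2 and 917 of 6389 (14.4%, 13.5 to 15.2) in BKO. Of Tfh and Tfr cells together it made up 18.0%, 16.9% and 10.9%, and Tfr cells 27.5%, 28.3% and 24.2%. The intervals cover the sampling of cells within a library only and give no comparison of genotypes. Genes that mark the subcluster, Il2ra and Swap70, were themselves lower in BKO cells of it, so the number of cells and the level of the genes that set the cluster cannot be told apart here. The sort gate is not described in the sources used here, and its part in the shares was not tested.

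Within subcluster 1, BKO was compared with both WT runs, and a gene was called when BKO lay at least 1.5 times beyond each run and the mean was at least 20 CPM. Of 6619 genes, 47 (0.71%) were called higher and 85 (1.28%) lower, with a median log2 ratio of -0.05. With TMM scaling 59 were higher and 63 lower (48.4% and not 35.6% of calls higher), and with the trend over intron length taken off 53 were higher and 48 lower (52.5%). That trend was present: the median log2 ratio was -0.24 over 858 genes with more than 100 kb of intron and 0.13 over 787 genes with less than 3 kb. Per the file headers, Cell Ranger 7.0.1 made the WT counts and version 4 those of BKO, and the part of this in the trend was not tested. Against WT run 1 alone, which shares the batch label with BKO, 93 genes were higher and 132 lower, and against run 2 alone 74 and 101.

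Among surface molecules, Ly6a and Lag3 were the highest in BKO. Ly6a, the gene of Sca-1, stood at 54.9, 54.8 and 188 CPM, a log2 ratio of 1.77, and Lag3, an inhibitory receptor for MHC class II, at 42.4, 51.0 and 128 CPM (1.44). Both BKO values lay far outside the WT runs. Free RNA of BKO held 326 CPM of Ly6a and 104 CPM of Lag3, and its part in these levels was not tested. Ly6a was higher in all 4 joint clusters, with log2 ratios of 1.09, 1.61, 1.13 and 2.69 in clusters 0, 3, 5 and 6, and so was Lag3, with 1.01, 0.60, 0.53 and 1.19. Cxcr3, the receptor for interferon-induced chemokines, stood at 28.8, 25.1 and 52.2 CPM (0.94) and had ratios between 0.77 and 1.20 in the 4 clusters. Tigit (0.71) was the other of 10 inhibitory receptor genes called higher, and Ly6a was the 1 gene called of 14 interferon genes.

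Transcription and metabolism gave smaller changes. Cebpa, a myeloid transcription factor gene, stood at 22.02, 25.4 and 57.2 CPM (1.25), with ratios between 0.68 and 0.78 in the 4 clusters. Myeloid markers summed to 111, 106 and 145 CPM, and their part in the Cebpa level was not tested. Gadd45b, a stress response gene, had a pooled ratio of 1.10, but ratios of 0.01, 0.68, 0.58 and 2.16 in clusters 0, 3, 5 and 6. Of 13 glycolysis genes Aldoa, Tpi1 and Pgam1 were called higher (list median 0.40), and Aldoa and Pgam1 lost the call once the intron trend was taken off. Pde3b, with a pooled ratio of 0.97, had ratios of 0.21 and 0.29 in clusters 0 and 5. In cluster 3 it stood at 0, 0 and 14.99 CPM and in cluster 6 at 0, 0 and 0.929 CPM. Its level was highest in cluster 5, which held 25.6%, 26.4% and 35.2% of the cells, and the part of those shares in the pooled ratio was not tested.

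Atp6v0d2, St8sia6 and Cd226 led the lower side. Atp6v0d2, a subunit of the vacuolar proton pump, stood at 49.9, 44.3 and 5.16 CPM (-3.07), and its ratios in clusters 0, 3, 5 and 6 were -2.75, -1.41, -2.003 and -1.44. St8sia6, a sialyltransferase gene, stood at 34.3, 32.8 and 7.65 CPM (-2.06), but its ratios in clusters 0, 3, 5 and 6 were -0.48, -0.72, -1.25 and -3.03. In cluster 0, where its level was highest, it stood at 51.9, 43.4 and 33.97 CPM, and that cluster held 50.4%, 48.8% and 11.6% of the cells. Cd226, the activating receptor that competes with TIGIT for ligands, stood at 169, 168 and 47.7 CPM (-1.81), and was lower in each of the 4 clusters (-1.02, -1.09, -0.56 and -2.11). The 2 WT runs were close for each of these genes, and BKO lay far below both. Sytl2, Csgalnact1, Abcg3, Mical3, Mfhas1 and Grk4, the others of the 10 ranked first besides Ebi3, had pooled log2 ratios from -1.41 to -0.99. Abcg3 (-1.07) had smaller ratios of -0.45, -0.01, -0.84 and -0.45 in clusters 0, 3, 5 and 6. For Mical3 (-1.08) they were -0.57, -2.39, -0.43 and -0.36. The part of the cells' makeup by cluster in these pooled ratios was not tested.

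Of 24 regulatory T cell genes, 5 were lower in BKO and none higher: Il2ra, Nrp1, Ebi3, Penk and Swap70. Over all genes 1.28% were lower and 0.71% higher. Penk had ratios of -0.19, -1.255, -0.96 and 0.28 in clusters 0, 3, 5 and 6, and 20 cells held 71.2% of its UMIs in BKO. Il2ra had a pooled log2 ratio of -0.94, with -0.23, -1.66, -0.01 and -0.59 in clusters 0, 3, 5 and 6. The value in cluster 3 rests on WT run 1, as the levels there were 161, 50.8 and 33.0 CPM, and the part of the cells' makeup by cluster in the pooled ratio was not tested. Ebi3, a subunit of the cytokine IL-35, stood at 32.5, 32.2 and 12.6 CPM (-1.32), with -1.27 in cluster 0 and 0.77 in cluster 6. Nrp1 lost its call with TMM scaling, and Nrp1 and Swap70 lost it with the intron trend taken off. The list's median was 0.04.

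Among resting and recirculating genes, Klf2, Bach2 and Il7r were called lower. Il7r, the IL-7 receptor gene, stood at 125, 116 and 61.4 CPM (-0.97), with smaller ratios of -0.41, -0.39 and -0.53 in clusters 0, 3 and 6 and -1.06 in cluster 5. Klf2 had a pooled ratio of -0.64 but 0.40 in cluster 0, and -1.97, -1.31 and -0.63 in clusters 3, 5 and 6. The part of the different makeup by joint cluster in these pooled ratios was not tested. Klf2 and Bach2 lost the call with TMM scaling. Among follicle positioning genes, Cxcr4, Rgs16 and Cxcr3 were higher and Klf2 and the integrin gene Itgb1 lower. Itgb1 had ratios of -0.50, -1.10, -0.14 and 0.21 in clusters 0, 3, 5 and 6, and Rgs16 0.83, 0.25, 0.24 and 0.81. The part of makeup by cluster in their pooled ratios was not tested. Cxcr4 and Itgb1 lost the call with the intron trend taken off, and Cxcr4 also without cells that had a Foxp3 UMI. Of 7 B cell help genes tested in BKO against WT, 0 were called in either direction. Over all genes only 0.71% were called higher and 1.28% lower, so 0 calls in so short a list says little.

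**Figure D5:**
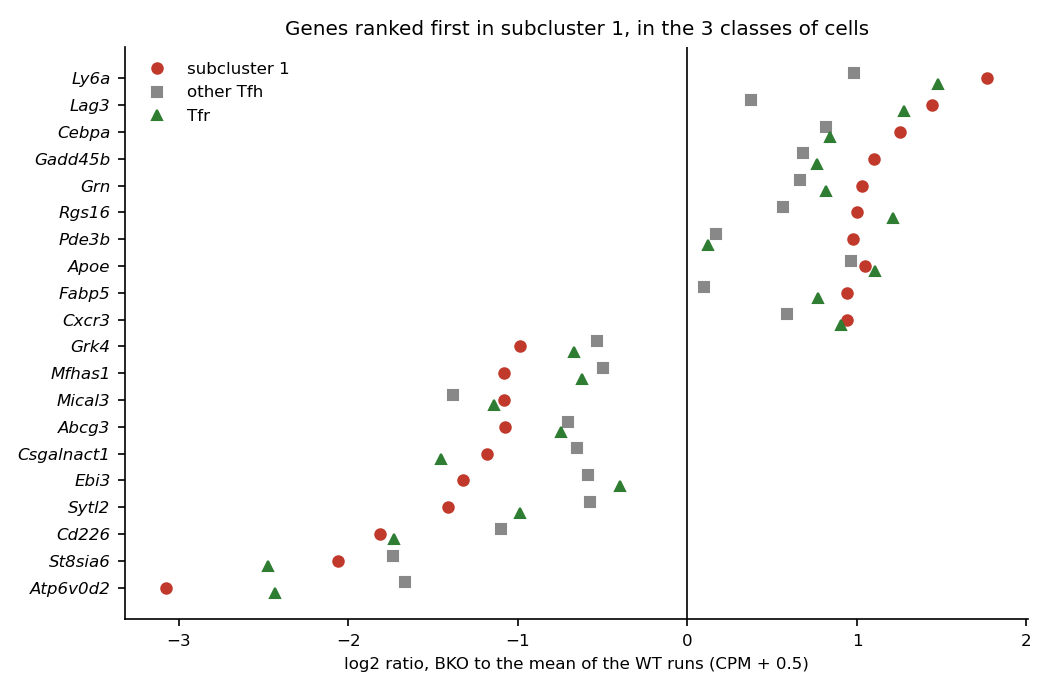
Log2 ratio of BKO to the mean of the WT runs (0.5 CPM added) for the 10 genes ranked first per direction in subcluster 1, shown for subcluster 1, other Tfh cells and Tfr cells. Ly6a (1.77) and Atp6v0d2 (-3.07) mark the ends in subcluster 1, and the other classes lie on the same side of 0 for all 20 genes.

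The ratio of BKO to WT in subcluster 1 was last set against that in the other Tfh cells, since a difference in counting between libraries enters both ratios. It did not cancel in full, as a trend over intron length stayed. The median difference was 0.12 over 817 genes with more than 100 kb of intron and -0.04 over 757 genes with less than 3 kb. Of 6275 genes, 58 (0.924%) had a ratio at least 1.5 times higher in subcluster 1 and 6 (0.0956%) lower. TMM scaling gave 44 and 13 (77.2% and not 90.6% of calls higher), the intron trend taken off 42 and 11 (79.2%), and either WT run alone 10 or 13 lower. Most of the ranked genes on the higher side were lower in BKO in the other Tfh cells and, pooled over its cells, moved less in the subcluster. The other Tfh cells differed in makeup between the libraries. Among them, Tfh subcluster 5 held 359, 363 and 11 cells and Tfh subcluster 2 held 257, 269 and 2180. The part of this makeup in the ratios was not tested. Ccl5, a chemokine of cytotoxic cells, stood at 30.2, 40.8 and 22.3 CPM in the subcluster and at 2876, 2741 and 34.3 CPM in the other Tfh cells. Within the subcluster its ratio was -0.18 in joint cluster 0 and -2.81, -2.53 and -1.80 in clusters 3, 5 and 6. Nkg7, Runx3 and Hip1 followed with differences of 3.22, 2.14 and 1.83, and Nkg7 had ratios of 0.64, -2.68, -3.17 and 1.05 in clusters 0, 3, 5 and 6 of the subcluster.

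Lag3, Ly6a and Pde3b were higher in BKO in the subcluster by more than in the other Tfh cells, with differences of 1.06, 0.79 and 0.81. Cd80, Sytl2, Cd226, Isyna1, Itgb1 and Ddit3 were the 6 genes on the lower side. Cd80, the B7 ligand, stood at 52.4, 51.2 and 36.6 CPM in the subcluster and at 18.6, 19.4 and 25.2 CPM in the other Tfh cells, so its ratio pointed down in one class (-0.50) and up in the other (0.40). Itgb1, the beta 1 integrin gene, stood at 480, 482 and 295 CPM against 492, 480 and 463. Regulatory T cell genes as a list had a median difference of 0.05 (-0.01 with TMM scaling), with Entpd1 and Cst7 called higher of 17 tested. Of 28 Tfh identity genes 0 were called, which says little, as over all genes 0.924% were called higher and 0.0956% lower.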

How the data were processed

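The deposited values are UMI counts per gene and barcode, not normalized. Per the file headers, cellranger 7.0.1 (WT) and Cell Ranger 4 (BKO) made the counts, on mm10 per the submitters' processing notes. The authors' tables give class, cluster numbers and percent of mitochondrial UMIs, and hold cells under 4000 genes and 10 percent. The members and lists were chosen with earlier results of these data known. No test was run, since each genotype has 1 library. Counts were summed per sample and class and scaled to CPM, and TMM factors came from edgeR 4.0.16. Named genes are the 10 ranked first per direction (receptor segments, Gm and Rik models and ribosomal or mitochondrial genes not ranked), the called members and 4 highest members of each list, and a set of T cell genes. Others are named as chosen after their values were seen. Coordinates are from GENCODE vM21. TMM scaling, other minimums and folds, an intron-length trend and leaving out runs or cells were tried as alternatives. The code was tested on simulated data. Intervals are exact (Clopper-Pearson, Poisson, 95%). Some genes are not reported here.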

Additional observations from a re-analysis of the deposited data

Results flagged for a closer look

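In 2 genes BKO and WT differed in opposite directions in subcluster 1 and in the other Tfh cells, by at least 1.5 times in each class against both WT runs and with a mean of at least 20 CPM in each class. Igkc, the immunoglobulin kappa constant gene, had a log2 ratio of BKO to WT of 0.67 in subcluster 1, where it stood at 74.9, 69.7 and 115 CPM, and of -0.84 in the other Tfh cells, at 195, 185 and 106 CPM. Within joint cluster 5, which holds most of its UMIs in subcluster 1, Igkc stood at 250, 232 and 235 CPM, and free RNA of BKO held 72.3 CPM. Setbp1, a SET-binding protein gene, had a log2 ratio of 0.67 in subcluster 1 (126, 124 and 198 CPM) and of -0.67 in the other Tfh cells (134, 137 and 84.9 CPM). In joint clusters 0, 3, 5 and 6 of subcluster 1 its ratios were 0.20, 1.57, 0.29 and -0.32. The difference between the classes was not tested, and with 1 library per genotype it cannot be. Both genes lost their call in subcluster 1 when cells with a Foxp3 UMI were left out, and Igkc also with the intron trend taken off.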

How the results depend on the processing

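No count, share, position or named gene reversed under the alternatives run, but medians of lists near 0 did: with TMM scaling that of Tfh identity genes went from 0.01 to -0.07 against other Tfh cells and from 0.02 to -0.04 for the ratio, and that of regulatory T cell genes for the ratio from 0.05 to -0.01. The balance of calls also turned, to 14 higher and 15 lower against Tfr cells with TMM scaling and to 53 and 48 in BKO with the intron trend taken off. The values by joint cluster were chosen after seeing the data. A minimum of 50 CPM gave 107 genes higher and 56 lower against other Tfh cells, 5 and 6 against Tfr cells, 20 and 42 in BKO against WT, and 14 and 2 for the ratio against other Tfh cells. A minimum of 5 CPM gave 434 and 224, 46 and 36, 141 and 233, and 212 and 51. A fold of 2 gave 70 and 43, 6 and 1, 5 and 11, and 15 and 0. TMM scaling gave 13 genes lower for that ratio, and the intron trend taken off 48 genes lower in BKO and 11 lower for the ratio. With WT cells of the same class and subcluster in both runs, 31 genes were higher and 27 lower than in Tfr cells. The median position over genes higher in Tfr cells, 89.6% in the mean of the samples, was 84.4% with TMM scaling, 89.2% at both other minimums, 91.2% at a fold of 2, 89.0% with 2 CPM added, 88.3% without cells that had a Foxp3 UMI and 86.3% with cells of the same class in both runs. Leaving out either WT replicate gave 14 to 24 genes lower against Tfr cells, 74 to 93 higher and 101 to 132 lower in BKO, 10 to 13 lower for the ratio and a position of 89.2% to 89.3%.

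The share of subcluster 1, BKO minus WT, was -9.90 percentage points of Tfh cells and -6.61 of Tfh and Tfr cells. The share with a Foxp3 UMI, 0.755%, 25.1% and 1.64%, became 0.230%, 9.64% and 0.337% at 2500 UMIs a cell and 0%, 7.96% and 0% with at least 2 UMIs. No paired analysis was possible because BKO has 1 replicate and the WT replicates are runs of the same cells. Depth limits Foxp3: at these depths a cell without a Foxp3 UMI is not shown to lack the transcript.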

Other observations

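Genes named here were chosen after their values were seen. Joint cluster 3 held subcluster 1 cells that exceeded the Tfr cells of the same cluster in the receptor genes Igf1r (217, 207 and 310 CPM against 125, 118 and 179) and Insr (70.9, 55.0 and 56.0 CPM against 31.6, 30.3 and 32.2), both of the insulin receptor family. S100a4 was lower there, at 172, 178 and 125 CPM against 296, 268 and 215. In joint cluster 6 Satb1, a chromatin organiser of T cells, stood at 4.39, 19.0 and 12.1 CPM against 36.7, 43.5 and 20.7 in Tfr cells.

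In cells of joint cluster 5, Il4 stood at 80.2, 90.7 and 45.1 CPM and Il21 at 35.6, 33.9 and 46.8 CPM, so the order of BKO and WT differed between these cytokine genes. In the Tfr cells of that cluster Il4 stood at 52.1, 60.0 and 42.0 CPM and Il21 at 36.7, 35.6 and 13.8 CPM.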
